A study of Danio rerio with 3 samples.

Results

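The genes described here encode importins, exportins and the proteins of the Ran cycle, which carry proteins and RNA through nuclear pores, together with ranbp9 and ranbp10, which the rule takes in by name although their products are not transport receptors. They were taken by symbol from the deposited expression table: every kpna, kpnb, ipo, xpo, tnpo, rangap, ranbp, nxf and nxt gene together with ran, cse1l, rcc1, nutf2 and nutf2l, at 1 FPKM or more in any library. FPKM counts fragments relative to the length of the transcript and to all mapped fragments of the library. Of 25386 genes in the table, 39 met the rule, against 14349 genes at that level overall. No gene with a matching symbol was lost to the minimum: the lowest member, ipo8, reached 4.06 FPKM in its highest library.

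The study asked how a block of nuclear pores affects zygotic genome activation in zebrafish (Danio rerio), and it holds 3 poly(A) RNA libraries of whole wild-type embryos without their chorions. The first came from embryos that received 1 nl of solution with 0.65 ng of wheat germ agglutinin (WGA) in the yolk at the 1-cell stage and were collected at 4.3 hours post fertilisation (hpf). The second came from embryos injected in the same way and collected at 5 hpf, when they had a dome-like shape. The control library came from embryos at 4.3 hpf, the dome stage, for which the labels give no treatment. WGA is a lectin that binds the sugar-modified nucleoporins in the pore channel. The labels name no mock injection and do not say how many embryos were pooled, so an effect of injection cannot be told apart from one of WGA. The series holds no control at 5 hpf, so WGA and age cannot be told apart in any ratio at 5 hpf over control.

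Transport receptors of the karyopherin-β family bind cargo on one side of the nuclear envelope and release it on the other. Importins let go of cargo when they meet Ran-GTP in the nucleus, whereas exportins hold cargo only together with Ran-GTP. The chromatin-bound exchange factor RCC1 keeps Ran in its GTP form in the nucleus, and RanGAP1 with RanBP1 triggers GTP hydrolysis in the cytoplasm. Importin-α proteins are adaptors that link cargo with a classical nuclear localisation signal to importin-β1. Bulk mRNA leaves by another route, the NXF1-NXT heterodimer, which does not use the Ran gradient.

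Each group has 1 library, so no value below has a replicate error and no p-value was computed. Every ratio is log2 of (FPKM + 1) in one library over another, and 2-fold on that scale is the size counted. Ratios of sums over several genes were taken without the added 1. Genes at 1 FPKM or more numbered 13128 in WGA embryos at 4.3 hpf, 13128 in WGA embryos at 5 hpf and 13739 in control embryos. The pluripotency markers nanog and pou5f3 summed to 1359 FPKM in WGA embryos at 4.3 hpf, 1387 FPKM in WGA embryos at 5 hpf and 1812 FPKM in control embryos. The enveloping layer keratins krt4, krt5 and krt92 summed to 16.4 FPKM in WGA embryos at 4.3 hpf, 69.1 FPKM in WGA embryos at 5 hpf and 162.7 FPKM in control embryos. The yolk syncytial layer genes mxtx1, gata6 and hnf4a summed to 4.79 FPKM in WGA embryos at 4.3 hpf, 18.3 FPKM in WGA embryos at 5 hpf and 60.4 FPKM in control embryos. The maternal germ plasm genes buc and tdrd6 summed to 388.4 FPKM in WGA embryos at 4.3 hpf, 404.8 FPKM in WGA embryos at 5 hpf and 73.9 FPKM in control embryos. The measured markers of differentiated cells (elavl3, hbbe1.1, ins, myhz1.1, mylpfa) stayed under 3 FPKM in sum in all libraries, with hbbe1.1, myhz1.1 and mylpfa each at or under 0.1 FPKM. These markers move with the WGA groups, and their part in the results on transport genes was not tested. In whole embryos, fewer cells of a type and less RNA per cell cannot be told apart.

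The transport genes covered levels between 2.19 and 449.30 FPKM, on a scale per length that allows genes to be set side by side. Their median was 30.6 FPKM in WGA embryos at 4.3 hpf, 35.0 FPKM in WGA embryos at 5 hpf and 32.5 FPKM in control embryos. The median of all genes at 1 FPKM or more was 12.4 FPKM in WGA embryos at 4.3 hpf, 11.5 FPKM in WGA embryos at 5 hpf and 10.1 FPKM in control embryos. Together the 39 genes held 0.657% of all FPKM in WGA embryos at 4.3 hpf, 0.703% in WGA embryos at 5 hpf and 0.676% in control embryos. The 2 most abundant were the GTPase gene ran and its exchange factor gene rcc1. The ran gene ranked 98 of all genes in WGA embryos at 4.3 hpf, 75 in WGA embryos at 5 hpf and 77 in control embryos. The rcc1 gene ranked 78 in WGA embryos at 4.3 hpf, 69 in WGA embryos at 5 hpf and 76 in control embryos. The next by mean level were kpna4, kpnb3, tnpo2 and tnpo3, an importin-α gene and 3 genes of importin-β class receptors.

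**Figure D1:**
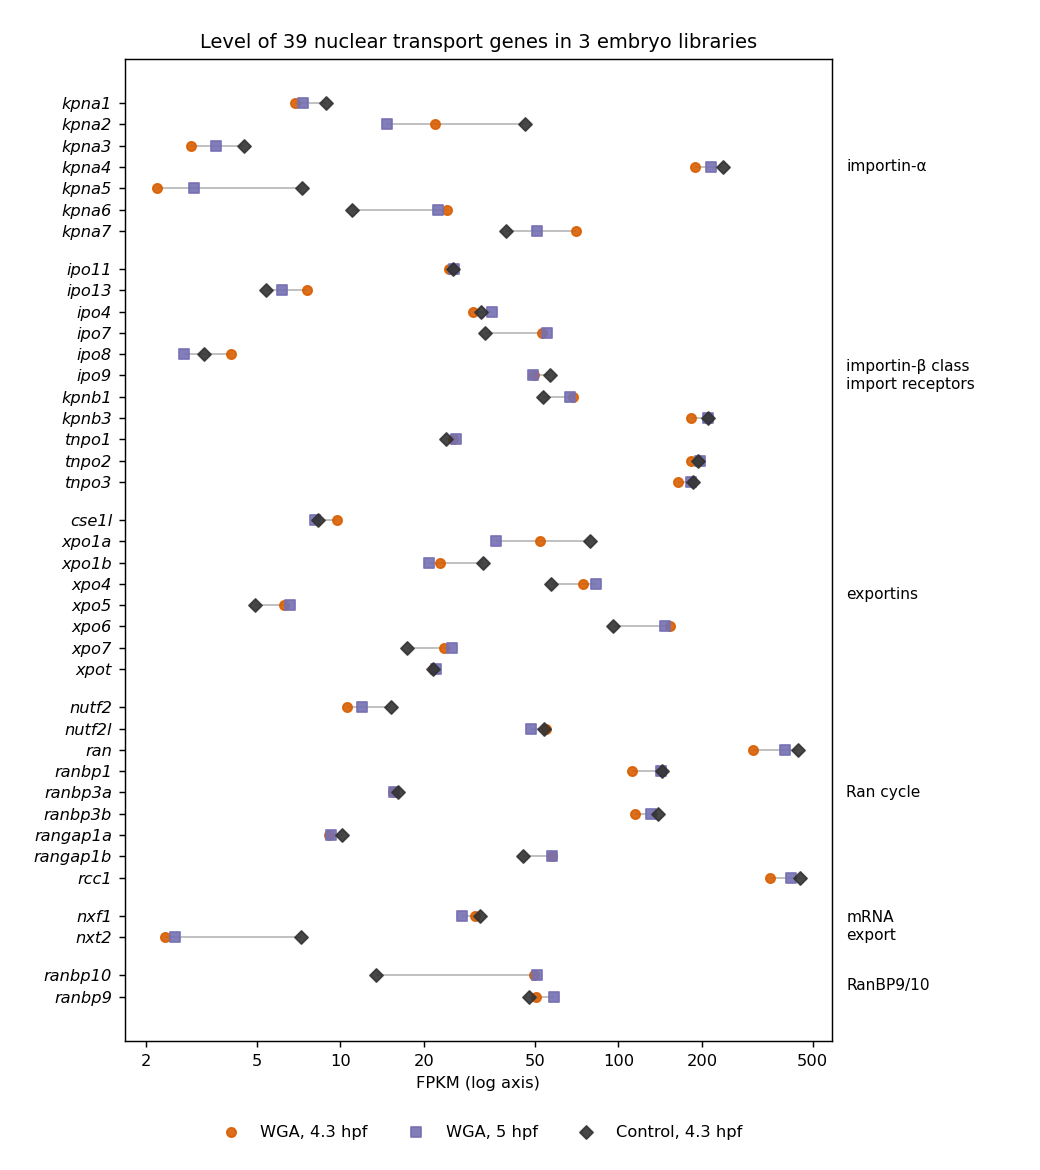
FPKM (log axis) of each of the 39 genes in WGA embryos at 4.3 hpf (circles), WGA embryos at 5 hpf (squares) and control embryos at 4.3 hpf (diamonds), 1 library each, grouped by role. The points of most genes lie close together, whereas ranbp10 stands apart at 49.52 and 51.08 FPKM in WGA embryos against 13.45 FPKM in control embryos. The kpna2, kpna5 and nxt2 genes lie below control by 2-fold or more in both WGA libraries. Other genes, ran and rcc1 among them, also lie below control in both, by less.

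At the matched time of 4.3 hpf, 2 of the 39 genes were higher in WGA embryos by 2-fold or more (5.13%), against 7.21% of the 14263 genes measured. A further 3 were lower (7.69%), against 8.97% of all genes. In WGA embryos at 5 hpf, dome-like in shape, 1 gene was higher than in control at 4.3 hpf (2.56%, against 5.3% of 14158 genes). Another 4 were lower (10.3%, against 7.92%). The shares lie near those of all genes, and nothing particular to transport genes is read from them. The median log2 ratio of the 39 genes was -0.06 at 4.3 hpf and -0.02 at 5 hpf, beside 0.03 and -0.02 over all genes. Both comparisons use the same control library. The counted genes were ranbp10 and kpna6 on the higher side and kpna2, kpna5, nxt2 and xpo1a on the lower side.

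The direction of small ratios depended on scaling. When libraries were scaled to the ribosomal protein genes, the median of all genes moved to 0.67 at 4.3 hpf and 0.31 at 5 hpf. In both WGA libraries the median ratio of ribosomal protein genes lay below control in deposited FPKM, so this scaling raises every WGA value. At 4.3 hpf, 10 of the 39 genes were then higher by 2-fold or more and 0 lower, beside 28.1% of all genes higher and 5.5% lower. At 5 hpf 3 were higher and 1 lower, beside 11.0% of all genes higher and 5.7% lower. Of all genes counted, the lower ones made up 16.4% at 4.3 hpf in place of 55.5%, and 34.1% at 5 hpf in place of 59.9%. Under all 8 settings tried, the one above and 7 others, 14 transport genes lay above control at 4.3 hpf and 3 below it, and these 3 were kpna2, kpna5 and nxt2. At 5 hpf 15 lay above control in every setting and 5 below it, namely kpna2, kpna5, nxt2, xpo1a and xpo1b. These counts were not made over all genes, so nothing particular to transport genes is read from them. Only TPM, median-of-ratios and ribosomal protein scaling could change a direction, since pseudocounts and filters leave the sign of a ratio unchanged.

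**Figure D2:**
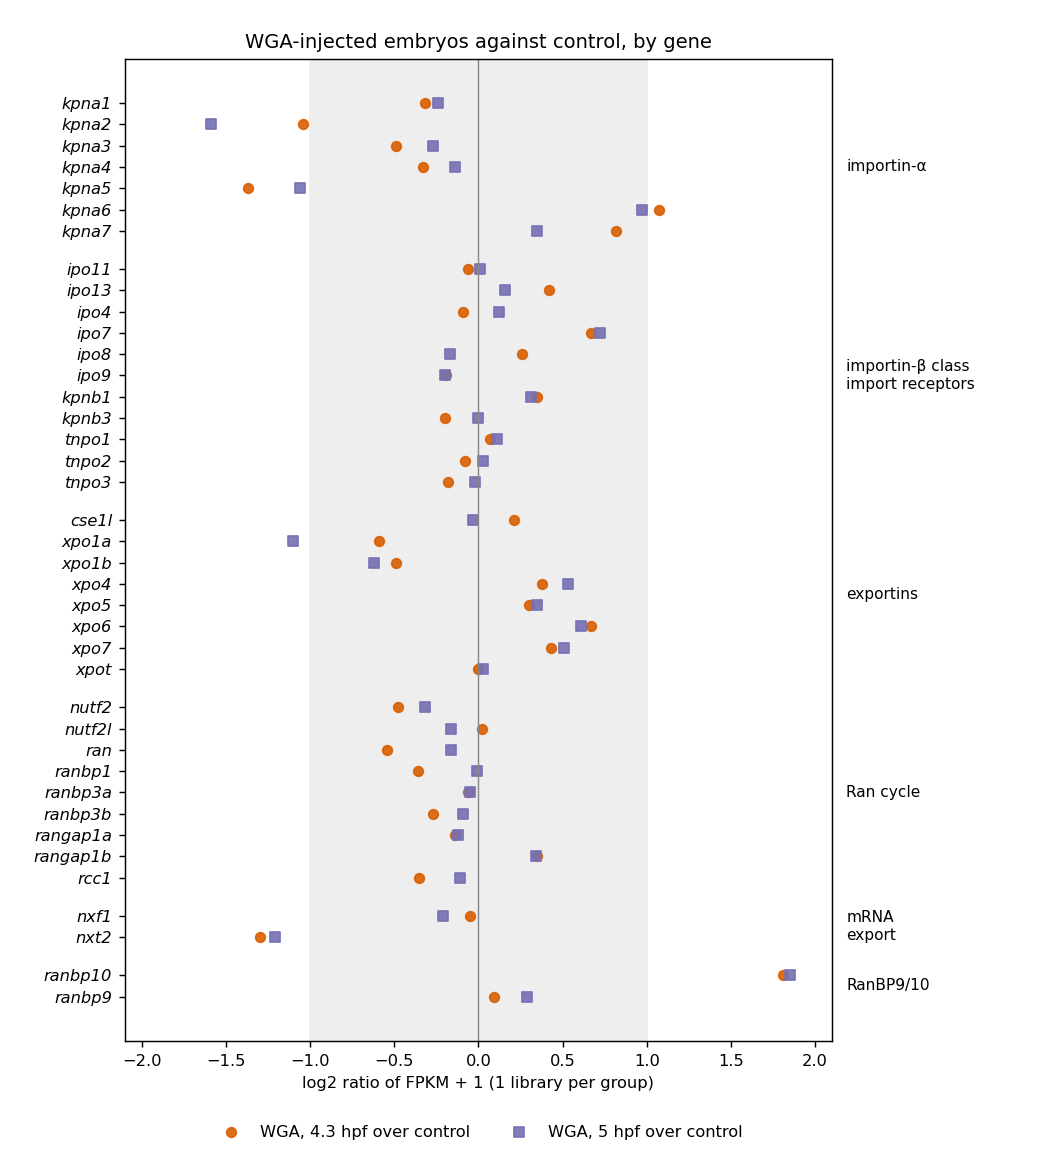
Log2 ratio of FPKM + 1 for each gene in WGA embryos at 4.3 hpf (circles) and 5 hpf (squares) over the 1 control library, with the band within 2-fold in grey. Most genes lie inside the band at both times: ranbp10 is the farthest above it (1.81 and 1.85) and kpna2 at 5 hpf the farthest below it (-1.59).

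**Figure D3:**
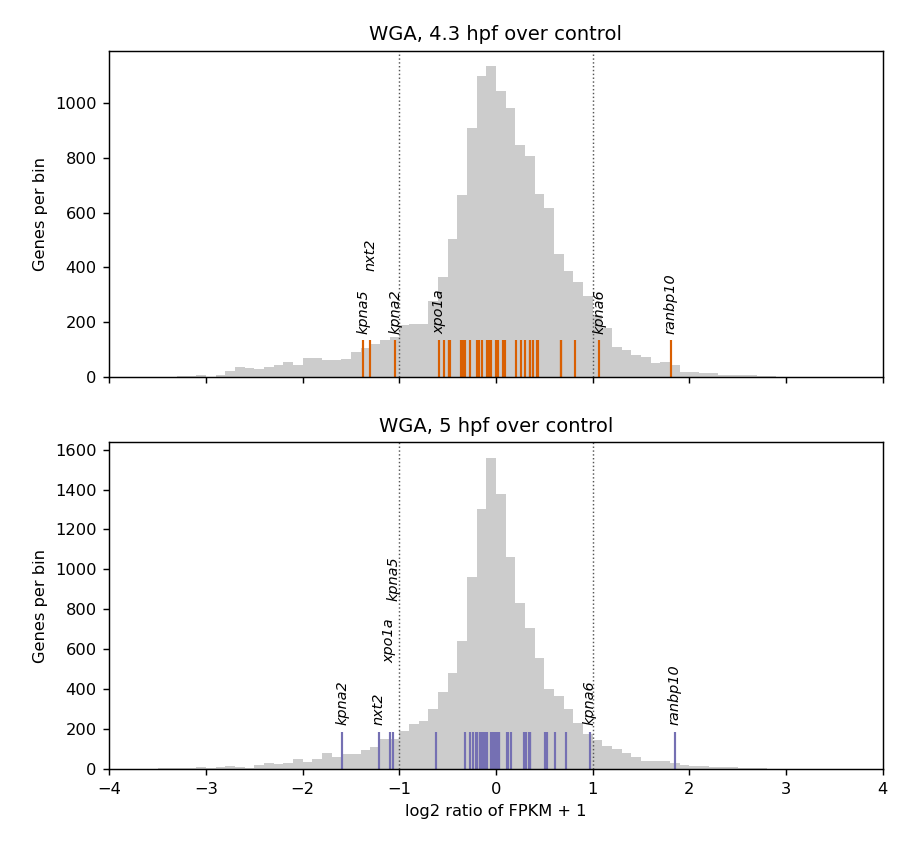
Number of genes per bin of the log2 ratio of FPKM + 1 over control, for all genes measured (grey), with the 39 transport genes as coloured lines and 2-fold as dotted lines. The transport genes sit mostly in the centre of the distribution, and at 4.3 hpf 152 of 14263 genes had a ratio as high as that of ranbp10.

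Importin-α genes differed more in their make-up than in their sum. The 7 genes summed to 316.83 FPKM in WGA embryos at 4.3 hpf, 317.45 FPKM in WGA embryos at 5 hpf and 354.76 FPKM in control embryos. Both WGA sums were 1.12 times lower than control, and under ribosomal protein scaling they were 1.48 and 1.16 times the control sum. Vertebrate importin-α proteins fall into 3 subfamilies, here kpna2 with kpna7, kpna3 with kpna4, and kpna1 with kpna5 and kpna6. The balance within the first and the third subfamily was another one in WGA embryos than in control embryos.

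In the first subfamily kpna2, an importin-α abundant in dividing cells, was at 21.97 FPKM in WGA embryos at 4.3 hpf, 14.73 FPKM in WGA embryos at 5 hpf and 46.32 FPKM in control embryos. It was thus lower by 2.06-fold at 4.3 hpf and 3.01-fold at 5 hpf. The ratio at 4.3 hpf came to lie inside 2-fold under TPM (log2 -0.96), ribosomal protein scaling (-0.34) and a pseudocount of 5 FPKM (-0.93), whereas that at 5 hpf stayed beyond it in every setting. As low a ratio was found in 1211 of 14263 genes at 4.3 hpf and in 467 of 14158 genes at 5 hpf. Its close relative kpna7, the importin-α of oocytes and early embryos in mammals, was at 70.45 FPKM in WGA embryos at 4.3 hpf, 50.76 FPKM in WGA embryos at 5 hpf and 39.55 FPKM in control embryos. Its log2 ratios were 0.82 and 0.35, inside 2-fold, and the first was 1.54 under ribosomal protein scaling. The kpna7 gene therefore made up 76.2% of the pair's FPKM in WGA embryos at 4.3 hpf and 77.5% in WGA embryos at 5 hpf, against 46.1% in control embryos. The pair summed to 92.42 FPKM at 4.3 hpf and 65.49 FPKM at 5 hpf in WGA embryos, against 85.87 FPKM in control embryos. Reads of close paralogues may be divided by estimate, which would touch the shares more than these sums, and this was not tested. The sums depend on scaling, which leaves the shares unchanged. Under ribosomal protein scaling the pair's sum was 1.78 times control at 4.3 hpf and 0.989 of control at 5 hpf.

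The kpna6 gene, of the third subfamily, was at 24.22 FPKM in WGA embryos at 4.3 hpf, 22.52 FPKM in WGA embryos at 5 hpf and 11.00 FPKM in control embryos. Its ratio was 2.1-fold at 4.3 hpf and just inside the limit at 5 hpf (1.96-fold). Over all settings its log2 ratio lay between 0.87 and 1.78 at 4.3 hpf and between 0.78 and 1.33 at 5 hpf, so which side of 2-fold it falls on depends on the setting at both times. The kpna5 gene lay on the other side of control, with 2.19 FPKM in WGA embryos at 4.3 hpf, 2.98 FPKM in WGA embryos at 5 hpf and 7.27 FPKM in control embryos. These are ratios of 2.59-fold and 2.08-fold lower, at levels where the pseudocount matters: without it the WGA values were 0.301 and 0.410 of the control value, and with 5 FPKM in its place the log2 ratios were -0.77 and -0.62. Under ribosomal protein scaling they were -0.84 and -0.77. The third gene, kpna1, was at 6.88 FPKM in WGA embryos at 4.3 hpf, 7.35 FPKM in WGA embryos at 5 hpf and 8.86 FPKM in control embryos, inside 2-fold. Of the FPKM of these 3 genes, kpna6 held 72.8% in WGA embryos at 4.3 hpf and 68.6% in WGA embryos at 5 hpf, against 40.5% in control embryos. The 3 genes summed to 33.29 and 32.85 FPKM in WGA embryos at 4.3 and 5 hpf, and to 27.13 FPKM in control embryos. Reads of such close paralogues may be divided among them by estimate, which would touch single values more than these sums. The sums depend on scaling, and under ribosomal protein scaling they were 2.03 and 1.57 times control.

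In the second subfamily, kpna3 with kpna4, the balance of the pair changed little. Of its FPKM kpna4 held 98.5% in WGA embryos at 4.3 hpf, 98.4% in WGA embryos at 5 hpf and 98.1% in control embryos. The pair's sum was 0.791 of control at 4.3 hpf and 0.906 at 5 hpf, and 1.31 and 1.17 times control under ribosomal protein scaling. The most abundant importin-α gene in each library was kpna4, at 188.21 FPKM in WGA embryos at 4.3 hpf, 215.53 FPKM in WGA embryos at 5 hpf and 237.25 FPKM in control embryos. It held 59.4% of all importin-α FPKM in WGA embryos at 4.3 hpf, 67.9% in WGA embryos at 5 hpf and 66.9% in control embryos. Its partner kpna3 was at 2.91 FPKM in WGA embryos at 4.3 hpf, 3.58 FPKM in WGA embryos at 5 hpf and 4.51 FPKM in control embryos. The log2 ratios of kpna4 (-0.33 and -0.14) turned positive under ribosomal protein scaling (0.39 and 0.23).

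**Figure D4:**
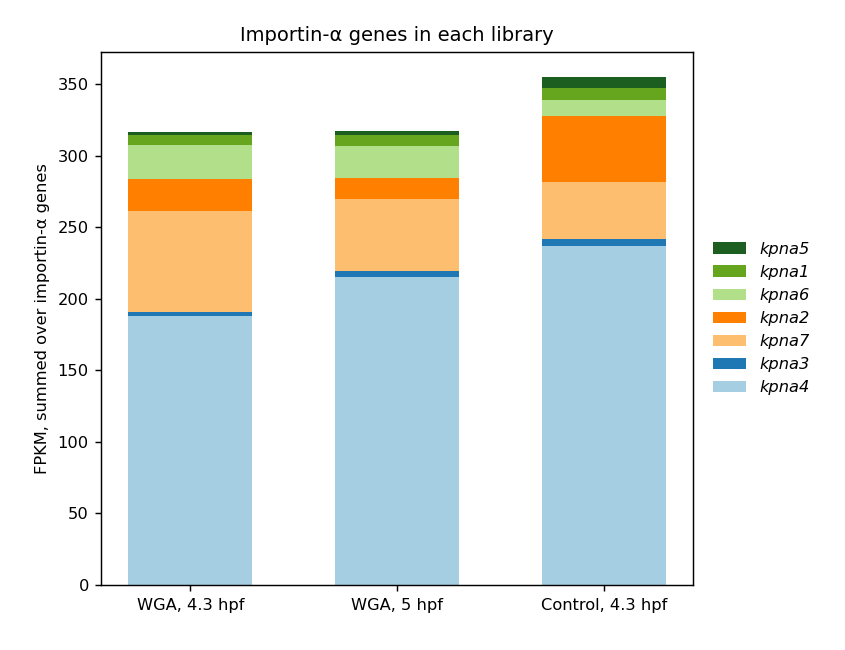
FPKM of the 7 importin-α genes, stacked, in WGA embryos at 4.3 hpf, WGA embryos at 5 hpf and control embryos at 4.3 hpf (1 library each). The stacks have similar heights (316.83 FPKM in WGA embryos at 4.3 hpf, 317.45 FPKM in WGA embryos at 5 hpf and 354.76 FPKM in control embryos), and kpna2 takes 6.93% and 4.64% of the WGA stacks against 13.1% of the control stack.

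None of the 11 import receptors of the importin-β class reached 2-fold at either time in deposited FPKM. Of all genes, 7.21% were higher and 8.97% lower at 4.3 hpf, and 5.3% higher and 7.92% lower at 5 hpf. Under ribosomal protein scaling ipo7 reached 2-fold at both times (log2 1.39 and 1.09), and kpnb1 (1.07) and ipo13 (1.09) at 4.3 hpf. That scaling put 28.1% of all genes 2-fold higher at 4.3 hpf and 11.0% at 5 hpf. In deposited FPKM the log2 ratios of the 11 genes over control ran between -0.20 and 0.67 at 4.3 hpf and between -0.20 and 0.72 at 5 hpf. Within 0.5 lay 10 of 11 at both times, beside 60.6% of all genes at 4.3 hpf and 67% at 5 hpf. The exception was ipo7, an importin of ribosomal proteins and linker histone, at 53.32 FPKM in WGA embryos at 4.3 hpf, 55.15 FPKM in WGA embryos at 5 hpf and 33.12 FPKM in control embryos. Both WGA values lay above control, by 1.59-fold and 1.65-fold. Its paralogue ipo8 was at 4.06 FPKM in WGA embryos at 4.3 hpf, 2.75 FPKM in WGA embryos at 5 hpf and 3.23 FPKM in control embryos. The partner of importin-α, importin-β1 (kpnb1), was at 68.83 FPKM in WGA embryos at 4.3 hpf, 66.90 FPKM in WGA embryos at 5 hpf and 53.72 FPKM in control embryos, ratios of 1.28-fold and 1.24-fold.

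The 3 most abundant receptors of this class lay near control in deposited FPKM. Importin 5 (kpnb3 in zebrafish), which imports ribosomal proteins and core histones, was at 181.96 FPKM in WGA embryos at 4.3 hpf, 209.26 FPKM in WGA embryos at 5 hpf and 209.63 FPKM in control embryos. The tnpo2 gene, a relative of the hnRNP importer transportin-1, was at 182.45 FPKM in WGA embryos at 4.3 hpf, 196.83 FPKM in WGA embryos at 5 hpf and 193.35 FPKM in control embryos. The tnpo3 gene, whose product imports splicing factors of the SR family, was at 163.16 FPKM in WGA embryos at 4.3 hpf, 183.10 FPKM in WGA embryos at 5 hpf and 185.36 FPKM in control embryos. In all 3 genes the WGA value at 5 hpf was closer to control than the value at 4.3 hpf. The whole table moved the same way, with 60.6% of all genes within 0.5 of control at 4.3 hpf and 67% at 5 hpf. Nothing particular to these 3 genes is read from it. The rest, ipo4, ipo9, ipo11, ipo13 and tnpo1, had log2 ratios between -0.20 and 0.42.

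The exportins lay on both sides of control. The copies of exportin 1 (CRM1), the receptor for cargo with a leucine-rich export signal, were lower at 5 hpf. The exportin genes xpo4, xpo6 and xpo7 were higher at both times, by under 2-fold in deposited FPKM. At 4.3 hpf, 2174 of 14263 genes had a ratio as high as xpo6, 3576 as high as xpo7 and 3953 as high as xpo4. On the lower side at that time, 2164 genes had a ratio as low as xpo1a and 2553 as low as xpo1b. At 5 hpf, 963 of 14158 genes had one as low as xpo1a and 2003 as low as xpo1b. On the higher side at 5 hpf, 1764 genes had one as high as xpo6, 2172 as high as xpo7 and 2097 as high as xpo4. Under ribosomal protein scaling the log2 ratios at 4.3 hpf were past 2-fold for xpo4 (1.1), xpo6 (1.40) and xpo7 (1.14). The sum of these 3 genes was then 2.45 times control at 4.3 hpf and 1.94 times control at 5 hpf. The same scaling put 28.1% of all genes 2-fold higher at 4.3 hpf, with a median log2 ratio of 0.67 over all genes. The xpo1a gene was at 52.31 FPKM in WGA embryos at 4.3 hpf, 36.43 FPKM in WGA embryos at 5 hpf and 79.26 FPKM in control embryos. Its ratio was 1.51-fold lower at 4.3 hpf and 2.14-fold lower at 5 hpf, and under ribosomal protein scaling the log2 ratios were 0.13 and -0.74. The xpo1b gene was at 22.90 FPKM in WGA embryos at 4.3 hpf, 20.76 FPKM in WGA embryos at 5 hpf and 32.48 FPKM in control embryos, 1.40-fold and 1.54-fold lower, with log2 ratios of 0.22 and -0.26 under ribosomal protein scaling. Summed, the 2 copies stood at 75.21 FPKM in WGA embryos at 4.3 hpf, 57.19 FPKM in WGA embryos at 5 hpf and 111.74 FPKM in control embryos. The sum at 5 hpf was below control under ribosomal protein scaling too (0.663 of control), but the sum at 4.3 hpf was then above it (1.12 times control).

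The xpo6 gene, whose product exports actin with profilin, was at 153.38 FPKM in WGA embryos at 4.3 hpf, 147.26 FPKM in WGA embryos at 5 hpf and 95.93 FPKM in control embryos, ratios of 1.59-fold and 1.53-fold. For xpo4, an exporter of the translation factor eIF5A, the values were 74.62 FPKM in WGA embryos at 4.3 hpf, 82.81 FPKM in WGA embryos at 5 hpf and 57.19 FPKM in control embryos. For xpo7 they were 23.69 FPKM in WGA embryos at 4.3 hpf, 25.12 FPKM in WGA embryos at 5 hpf and 17.32 FPKM in control embryos. All 3 genes thus lay above control in both WGA libraries. Of all exportin FPKM, xpo6 held 42.1% in WGA embryos at 4.3 hpf and 42.2% in WGA embryos at 5 hpf, against 30.3% in control embryos. The xpo1a share was 14.4% and 10.4% in WGA embryos, against 25.0% in control embryos. The 8 exportins together came to 364.51 FPKM in WGA embryos at 4.3 hpf, 349.17 FPKM in WGA embryos at 5 hpf and 317.02 FPKM in control embryos. The tRNA exporter gene xpot was level, at 21.56 FPKM in WGA embryos at 4.3 hpf, 22.13 FPKM in WGA embryos at 5 hpf and 21.60 FPKM in control embryos. The exporter of microRNA precursors, xpo5, was at 6.29 FPKM in WGA embryos at 4.3 hpf, 6.58 FPKM in WGA embryos at 5 hpf and 4.94 FPKM in control embryos. The cse1l gene, whose product returns importin-α to the cytoplasm, was at 9.76 FPKM in WGA embryos at 4.3 hpf, 8.08 FPKM in WGA embryos at 5 hpf and 8.30 FPKM in control embryos.

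None of the 9 Ran cycle genes reached 2-fold in deposited FPKM. Beside this, 7.21% of all genes were higher and 8.97% lower at 4.3 hpf, and 5.3% higher and 7.92% lower at 5 hpf. Under ribosomal protein scaling rangap1b was past 2-fold higher at 4.3 hpf (log2 1.07), as were 28.1% of all genes. The 3 most abundant Ran cycle genes were below control at 4.3 hpf and nearer to it at 5 hpf. Ribosomal protein scaling instead put these 3 genes above control at both times. Genes of the whole table also lay nearer to control at 5 hpf, with 67% within 0.5 in log2 ratio against 60.6% at 4.3 hpf. The ran gene was at 303.72 FPKM in WGA embryos at 4.3 hpf, 396.62 FPKM in WGA embryos at 5 hpf and 441.81 FPKM in control embryos. The rcc1 gene was at 351.69 FPKM in WGA embryos at 4.3 hpf, 417.57 FPKM in WGA embryos at 5 hpf and 449.30 FPKM in control embryos. The ranbp1 gene was at 111.93 FPKM in WGA embryos at 4.3 hpf, 142.47 FPKM in WGA embryos at 5 hpf and 143.59 FPKM in control embryos. Summed, these 3 genes stood at 0.742 of control at 4.3 hpf and 0.925 at 5 hpf, and at 1.23 and 1.2 times control under ribosomal protein scaling. Each of them held a near-constant share of the sum, for rcc1 45.8% in WGA embryos at 4.3 hpf, 43.6% in WGA embryos at 5 hpf and 43.4% in control embryos.

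The GTPase-activating protein gene rangap1b lay above control in every setting, at 57.80 FPKM in WGA embryos at 4.3 hpf, 57.61 FPKM in WGA embryos at 5 hpf and 45.25 FPKM in control embryos, a ratio of 1.27-fold at both times. Its copy rangap1a was at 9.11 FPKM in WGA embryos at 4.3 hpf, 9.28 FPKM in WGA embryos at 5 hpf and 10.16 FPKM in control embryos. The ranbp3 genes encode a cofactor of exportin 1. Of these, ranbp3b was at 115.03 FPKM in WGA embryos at 4.3 hpf, 130.46 FPKM in WGA embryos at 5 hpf and 138.55 FPKM in control embryos, and ranbp3a was at 15.45 FPKM in WGA embryos at 4.3 hpf, 15.56 FPKM in WGA embryos at 5 hpf and 16.14 FPKM in control embryos. NTF2, the carrier that returns Ran-GDP to the nucleus, is encoded by nutf2l and nutf2. The main copy, nutf2l, was at 54.79 FPKM in WGA embryos at 4.3 hpf, 48.39 FPKM in WGA embryos at 5 hpf and 54.05 FPKM in control embryos. The nutf2 gene was at 10.55 FPKM in WGA embryos at 4.3 hpf, 11.96 FPKM in WGA embryos at 5 hpf and 15.16 FPKM in control embryos.

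The mRNA export receptor genes differed from each other. The nxf1 gene was level, at 30.59 FPKM in WGA embryos at 4.3 hpf, 27.29 FPKM in WGA embryos at 5 hpf and 31.77 FPKM in control embryos. Its small partner gene nxt2 was at 2.34 FPKM in WGA embryos at 4.3 hpf, 2.55 FPKM in WGA embryos at 5 hpf and 7.20 FPKM in control embryos. The nxt2 ratios were 2.46-fold and 2.31-fold lower, and 874 of 14263 genes at 4.3 hpf had a ratio as low. With a pseudocount of 5 FPKM its log2 ratios were -0.73 and -0.69, and under ribosomal protein scaling -0.75 and -0.93, inside 2-fold in each case. RefSeq (assembly GRCz12tu, used for names) now calls the nxf1 gene nxf1b and names a second copy, nxf1a, which the table lists under a clone name (zgc:153681). That copy was at 13.93 FPKM in WGA embryos at 4.3 hpf, 11.89 FPKM in WGA embryos at 5 hpf and 5.32 FPKM in control embryos. It lies outside the symbol rule and was higher by 2.36-fold at 4.3 hpf and 2.04-fold at 5 hpf.

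The same naming table added 3 more genes that the symbols miss. The pore component ranbp2 (si:ch1073-55a19.2), which anchors RanGAP1 on the cytoplasmic side, was at 33.30 FPKM in WGA embryos at 4.3 hpf, 33.02 FPKM in WGA embryos at 5 hpf and 32.54 FPKM in control embryos. The tnpo2b gene (LOC100005536) was at 67.46 FPKM in WGA embryos at 4.3 hpf, 65.80 FPKM in WGA embryos at 5 hpf and 87.78 FPKM in control embryos, at log2 ratios of -0.37 and -0.41. The ipo13a gene (si:ch73-182a11.2) stayed at or under 0.22 FPKM. With these 4 genes added, nxf1a would be the only further one at 2-fold.

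The farthest from control of all 39 genes was ranbp10, at 49.52 FPKM in WGA embryos at 4.3 hpf, 51.08 FPKM in WGA embryos at 5 hpf and 13.45 FPKM in control embryos. Its ratios were 3.50-fold and 3.60-fold, and 152 of 14263 genes at 4.3 hpf and 120 of 14158 at 5 hpf had one as high. Despite its name, RanBP10 is not a transport receptor. In mammals it is a scaffold of the CTLH ubiquitin ligase and resembles RanBP9. The ranbp9 gene was at 50.68 FPKM in WGA embryos at 4.3 hpf, 58.64 FPKM in WGA embryos at 5 hpf and 47.68 FPKM in control embryos, inside 2-fold. The pair was thus nearly even in WGA embryos, with 49.4% and 46.6% of its FPKM from ranbp10, against 22.0% in control embryos.

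Between the WGA libraries, at 5 against 4.3 hpf, 0 of 39 genes were higher by 2-fold or more (0.772% of 13478 genes) and 0 lower (0.356%). The log2 ratios ran between -0.55 and 0.38, with a median of 0.05 beside -0.05 over all genes. Within 0.5 lay 37 of 39, beside 90.6% of all genes. The 2 beyond that were kpna2 at -0.55 and xpo1a at -0.51. The next lowest were kpna7 (-0.47) and ipo8 (-0.43). The highest were ran (0.38), ranbp1 (0.35) and kpna5 (0.32). Under ribosomal protein scaling, ran and kpna5 stayed above 0 and the other genes that had been above 0 turned below it.

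Factors that work with these receptors were read from lists fixed by symbol. The 5 partner lists, and the genes outside the symbol rule, were read in deposited FPKM only, not under the other settings. Of 22 mRNA export factors (TREX, TREX-2, and the Dbp5 and Gle1 step), 1 was higher by 2-fold or more and 0 lower at both times, beside 7.21% of all genes higher and 8.97% lower at 4.3 hpf and 5.3% higher and 7.92% lower at 5 hpf. Their median log2 ratios were -0.32 at 4.3 hpf and -0.12 at 5 hpf, beside 0.03 and -0.02 over all genes. The higher one was ddx19a (zgc:193690), a copy of the Dbp5 helicase gene, at 15.42 FPKM in WGA embryos at 4.3 hpf, 16.93 FPKM in WGA embryos at 5 hpf and 6.20 FPKM in control embryos. The main copy, ddx19b (ddx19 in the table), was inside 2-fold at log2 ratios of -0.40 and -0.12.

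Of 11 adaptors that link receptors to RNA, ribosome or chaperone cargo, 1 was higher at 4.3 hpf (7.21% of all genes) and 2 at 5 hpf (5.3% of all genes), and 0 were lower (8.97% and 7.92% of all genes). The medians were 0.18 and -0.04, and the lowest log2 ratios, just inside 2-fold, were -0.94 and -0.88. Both belong to 1 gene at a low level, where the pseudocount matters. Without it the WGA values were 0.485 of control at 4.3 hpf, past 2-fold, and 0.509 at 5 hpf. The snRNA export adaptor gene phax, whose product works with exportin 1, was at 84.47 FPKM in WGA embryos at 4.3 hpf, 81.25 FPKM in WGA embryos at 5 hpf and 32.36 FPKM in control embryos. Its ratios were 2.56-fold and 2.47-fold. Snurportin (snupn), which brings spliceosomal snRNPs back into the nucleus, was at 151.24 FPKM in WGA embryos at 4.3 hpf, 172.14 FPKM in WGA embryos at 5 hpf and 78.22 FPKM in control embryos, 1.92-fold and 2.19-fold higher.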

How the data were processed

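The authors deposited 1 table of FPKM values with 2 decimals for 25386 genes, each with an NCBI Gene number and a symbol. GRCz11 is the build in the submitters' processing notes, which also list RSEM 1.2.8, Bowtie2 2.2.5 and Trimmomatic 0.36 but give no roles or settings. The annotation release and any scaling between libraries are not given in the sources used here. Columns were matched to libraries by name. Only transcripts with a poly(A) tail were captured, so a tail length that differs cannot be told apart from an RNA level that differs. FPKM holds no read numbers, so the absolute depth could not be known and counting intervals are left out. The commonest ratio of low values (0.1 to 1 FPKM in both libraries, searched between 0.85 and 1.18) was 0.967 for WGA at 4.3 hpf over control, 0.962 for WGA at 5 hpf over control and 0.999 between the WGA libraries.

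From these values, log2 ratios of FPKM + 1 were computed for 3 comparisons with Python 3.11.15 and pandas 2.3.3. A gene was measured in a pair at 1 FPKM or more in either library, and counted at 2-fold or more. The calling step was tested on simulated data with changes well past 2-fold in genes well above the minimum. That checks the code only, not ratios near 2-fold or at low levels. The 39 members, 5 partner lists (71 entries, 69 matched) and their rules were chosen with earlier results of these data known. Every member could be named. Of each partner list, up to 3 members with the largest ratio past 2-fold were named, and ddx19b was named after its values were seen. RefSeq gene names (assembly GRCz12tu) matched all 39 members by gene number. No coordinates or sequences are given. Alternatives covered the pseudocount, the filter, TPM, 2 other scalings and a 1.5-fold size.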

Additional observations from a re-analysis of the deposited data

How the results depend on the processing

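With 1 library per group, no replicate could be left out, and no difference has an error across embryos. No paired analysis was possible because each group holds 1 library and no test was made. The counts of transport genes are small, so 1 gene decides most moves between settings, and low genes such as kpna5 and nxt2 depend on the pseudocount. Ribosomal protein scaling moved the medians most. The cause was not tested for any of these moves beyond what each setting does by construction.

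At 4.3 hpf over control, genes higher by 2-fold or more numbered 2 in the report, 1 with a pseudocount of 5 FPKM (3.33% of all genes), 1 under median-of-ratios scaling (6.02%), 10 under ribosomal protein scaling (28.1%) and 5 when 1.5-fold was counted (18.1% of all genes at that size). Lower genes numbered 3 in the report, 0 with a pseudocount of 5 FPKM (3.73% of all genes) and 0 under ribosomal protein scaling (5.5%). The median of -0.06 turned to 0.04 under TPM and 0.64 under ribosomal protein scaling. At 5 hpf over control, higher genes numbered 1 in the report, 2 with a pseudocount of 0.1 FPKM (7.54% of all genes), 2 under TPM (6.6%), 3 under ribosomal protein scaling (11.0%) and 4 when 1.5-fold was counted (13.3% of all genes). Lower genes numbered 4 in the report, 2 with a pseudocount of 5 FPKM (3.12% of all genes) and 1 under ribosomal protein scaling (5.7%). The median of -0.02 turned to 0.05 under TPM and 0.35 under ribosomal protein scaling. Between the WGA libraries the median of 0.05 turned to -0.30 under ribosomal protein scaling. The other 52 values of these counts and medians stayed within 1.5 times (counts) or 0.1 (medians) of the report.

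Of the ratios of the 6 named genes past 2-fold, that of xpo1a at 4.3 hpf turned to 0.13 under ribosomal protein scaling. A further 14 crossed to within 2-fold in the same direction and 3 crossed to beyond it, while 66 kept both direction and side. The filter settings leave the ratio of each gene unchanged, so their values are among the 66 by construction.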

Other observations

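The SUMO pathway modifies RanGAP1 and places it at the pore. Of 17 measured SUMO genes, 2 were higher by 2-fold or more in WGA embryos at 4.3 hpf and 1 at 5 hpf, and 0 were lower, beside 7.21% and 5.3% of all genes higher and 8.97% and 7.92% lower. The SUMO protease gene senp6b was at 18.46 FPKM in WGA embryos at 4.3 hpf, 12.65 FPKM in WGA embryos at 5 hpf and 5.20 FPKM in control embryos, ratios of 3.14-fold and 2.2-fold. Another protease gene, senp1 (si:dkey-21c19.3), was at 58.87 FPKM in WGA embryos at 4.3 hpf, 50.16 FPKM in WGA embryos at 5 hpf and 25.91 FPKM in control embryos, ratios of 2.22-fold and 1.90-fold. The list medians were -0.03 and -0.11.

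Ran-GTP also frees spindle factors from importins in mitosis. Of 9 such genes, 1 was higher by 2-fold or more at both times and 0 were lower, beside the same shares of all genes, with medians of 0.22 and 0.07. It was the kinesin gene kif14, at 25.54 FPKM in WGA embryos at 4.3 hpf, 21.40 FPKM in WGA embryos at 5 hpf and 8.45 FPKM in control embryos. Between the WGA libraries the microtubule-binding gene hmmr was lower at 5 hpf, with 12.13 FPKM against 25.78 FPKM at 4.3 hpf, a ratio of 2.04-fold lower. Of all 13478 genes, 0.356% were lower by 2-fold or more between these libraries. In the other partner lists 0 genes reached 2-fold between them. Of 9 measured genes of the nuclear lamina and its membrane partners, 0 reached 2-fold at either time, beside 7.21% of all genes higher and 8.97% lower at 4.3 hpf and 5.3% higher and 7.92% lower at 5 hpf, with log2 ratios over control between -0.70 and 0.37.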
